A study of Schizosaccharomyces pombe with 26 samples.

Results

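Histone H3 occupancy over the intergenic regions of fission yeast (Schizosaccharomyces pombe) was compared between a strain lacking hrp1 (Δhrp1, 3 samples) and the wildtype strain (2 samples), 5 of the 26 samples of the series. Cells of each strain carried no other labelled allele and were grown to mid-log phase in the rich medium YES. Chromatin was fixed with formaldehyde and precipitated with an antibody against histone H3 (ChIP), and the amplified DNA was hybridised to spotted arrays whose 4883 named features each stand for an intergenic region, named after a neighbouring gene. The replicates are labelled as biological, with no statement of separate cultures, and p-values cover only the spread of these samples. A strain lacking med15 (Δmed15, 2 samples on the same array type) entered the fit for its estimate of spread and dye, and is given beside some values. The files do not state on which side of its gene a feature lies. Chromatin fragments were longer than many intergenic regions, so a feature also reads the H3 of its neighbours.

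Hrp1 is a remodelling ATPase of the CHD1 family, enzymes that use ATP to space and reposition nucleosomes, and its paralogue Hrp3 belongs to the same family. H3 is a core component of every canonical nucleosome, and nucleosomes are usually depleted just upstream of active genes. In fission yeast Hrp1 is known for roles in nucleosome arrangement over genes and promoters and in loading of the centromeric H3 variant. The values are log2 signals of the ChIP channel, centred so that 0 is the median feature of an array. They were not divided by input DNA, and input of the wildtype samples was not used here.

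The regions of 5 genes that moved clearly are shown for reference, as 250 bases before the RefSeq gene start in build ASM294v3, read towards the gene. Signal was lower in Δhrp1 at pyk1, fba1 and qcr1 and higher at pdp2 and taf6. Capitals mark matches to a pair of motifs searched on either strand. Matches of one motif on opposite strands overlap at fba1 and at pdp2, and are printed there as 1 stretch of capitals. The TATA-box sequence TATAAA was found in 44.4% of the windows of all 5112 protein-coding genes. The core bound by the stress factor Atf1, TGACGT, was found in 5.52% of them.
pyk1 (chrI:3846676-3846925, minus strand): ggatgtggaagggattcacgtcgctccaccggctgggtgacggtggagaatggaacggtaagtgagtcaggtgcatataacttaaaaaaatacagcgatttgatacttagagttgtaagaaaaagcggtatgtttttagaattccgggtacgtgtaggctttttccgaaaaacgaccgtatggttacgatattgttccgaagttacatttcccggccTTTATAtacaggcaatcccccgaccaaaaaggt
fba1 (chrII:1688071-1688320, plus strand): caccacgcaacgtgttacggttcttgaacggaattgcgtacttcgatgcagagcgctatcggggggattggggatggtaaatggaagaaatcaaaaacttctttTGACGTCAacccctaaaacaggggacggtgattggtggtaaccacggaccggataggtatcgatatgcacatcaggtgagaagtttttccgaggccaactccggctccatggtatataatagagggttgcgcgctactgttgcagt
qcr1 (chrII:2034900-2035149, minus strand): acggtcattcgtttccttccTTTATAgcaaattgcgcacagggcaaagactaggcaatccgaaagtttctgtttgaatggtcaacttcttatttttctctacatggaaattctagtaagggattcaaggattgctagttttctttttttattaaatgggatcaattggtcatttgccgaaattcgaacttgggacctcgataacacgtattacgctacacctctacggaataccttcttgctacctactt
pdp2 (chrII:4041170-4041419, minus strand): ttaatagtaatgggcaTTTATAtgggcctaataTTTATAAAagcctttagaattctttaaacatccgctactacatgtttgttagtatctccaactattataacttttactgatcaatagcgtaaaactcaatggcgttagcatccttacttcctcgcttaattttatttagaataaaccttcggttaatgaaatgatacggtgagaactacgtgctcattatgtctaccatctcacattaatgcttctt
taf6 (chrIII:701698-701947, minus strand): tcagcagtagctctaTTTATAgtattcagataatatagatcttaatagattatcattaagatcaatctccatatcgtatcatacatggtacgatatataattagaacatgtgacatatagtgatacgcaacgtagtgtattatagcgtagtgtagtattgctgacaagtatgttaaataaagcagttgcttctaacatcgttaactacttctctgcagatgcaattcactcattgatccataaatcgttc
Transcription of tRNA genes by RNA polymerase III starts from promoter elements inside the gene, among them the B box. Of 18 tRNA features on the array, 10 carry coordinates that equal, to within 1 base, those of a RefSeq tRNA gene of the same amino acid, all on chromosome III. Of these 10, 3 tRNA genes whose signal fell in Δhrp1 are shown, with 2 that did not pass the test and whose fitted difference was above 0. A match to the B-box pattern GTTCNANNC is in capitals, searched on the strand of the gene.
tRNA-Arg TCT (chrIII:578847-578919, plus strand): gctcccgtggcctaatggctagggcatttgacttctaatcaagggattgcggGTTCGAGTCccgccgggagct
tRNA-Asn GTT (chrIII:947262-947335, plus strand): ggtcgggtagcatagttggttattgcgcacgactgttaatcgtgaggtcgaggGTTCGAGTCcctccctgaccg
tRNA-Glu CTC (chrIII:140967-141038, plus strand): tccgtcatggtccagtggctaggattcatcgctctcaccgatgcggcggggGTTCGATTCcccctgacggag
tRNA-Ile AAT (chrIII:817425-817498, plus strand): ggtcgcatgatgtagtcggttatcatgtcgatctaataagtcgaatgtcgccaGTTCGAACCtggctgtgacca
tRNA-Phe GAA (chrIII:331228-331300, minus strand): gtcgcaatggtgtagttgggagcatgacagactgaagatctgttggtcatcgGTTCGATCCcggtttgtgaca
The B-box match was present in tRNA genes of either kind. The GC content of the printed windows was 44.4% at pyk1, 49.6% at fba1, 38.8% at qcr1, 32.4% at pdp2 and 32.0% at taf6. The median over all windows was 32.0%.

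The label of the deletion was checked first at the coding feature of hrp1 on the companion arrays of open reading frames (ORF). Signal there averaged −5.26 in Δhrp1 (3 samples, highest −4.54), against 1.49 and 1.41 in wildtype, a difference of −6.98 ± 0.41 (SE; limma, adjusted p = 0.000277). The Δhrp1 values lie near background, where the exact size of a fall cannot be read. The intergenic feature named after hrp1 had −3.26, −2.21 and −1.81 in Δhrp1, against −0.98 and −0.88 in wildtype (−1.57 ± 0.62, adjusted p = 0.118). The groups do not overlap there, but the difference does not pass the test. The intergenic feature of med15, the Mediator tail subunit gene, had −5.28, −1.38 and −1.16 in Δhrp1, against −0.34 and −0.15 in wildtype (−2.74 ± 1.07, adjusted p = 0.112). The med15 difference was −1.01 without Δhrp1 replicate 1, and passed the test without Δhrp1 replicate 2 (−3.94, adjusted p = 0.0458).

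The arrays differed in quality. Duplicate spots of a feature correlated with r of 0.855 to 0.922 in Δhrp1 and 0.943 to 0.971 in wildtype. Spots at the floor of the deposited scale, treated as missing, made up 0.829% to 4.98% of spots in Δhrp1, with the highest share in replicate 1, and 0.205% to 0.778% in wildtype. Spread across features, from the median absolute deviation, was widest in Δhrp1 replicate 1 (2.18, against 1.32 and 1.46 in wildtype) and narrowest in replicate 3 (1.20). Median ChIP signal was 612 scanner units in Δhrp1 replicate 1, 2927 in replicate 2 and 3899.25 in replicate 3. Scanner flag 2 marked 57.5%, 15.1% and 35.6% of their spots, against 1.64% and 1.18% in Δmed15. The sample values given here were not scaled for spread. Across features, the Spearman correlation between samples was 0.71 to 0.77 within Δhrp1, 0.92 within wildtype and 0.45 to 0.54 between the strains (4883 features of shared probes, given as a description). All wildtype ChIP DNA was labelled with Cy3, and so was that of Δhrp1 replicates 1 and 2, while replicate 3 was in Cy5. Scanner files of the wildtype samples were not analysed here, so a set of arrays hybridised apart and the strain cannot be told apart.

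Signal fell at more intergenic features than it rose. Of 4880 features tested, 418 (8.57%) were lower in Δhrp1 and 183 (3.75%) higher, 601 (12.3%) in all, by limma with strain and dye terms at an adjusted p under 0.05. Their absolute differences ran between 1.81 and 7.74 log2 units, with a median of 2.77. Among the 4765 features measured in all 5 samples, every Δhrp1 sample lay below every wildtype sample at 26.5% and above at 22.5%. The features that were lower had a median of −2.25 in Δhrp1 and 0.48 in wildtype, which is above the wildtype median of all features. The features that were higher had a median of 0.99 in Δhrp1 and −1.68 in wildtype. In Δmed15 the medians of these sets were −0.55 and 0.57. The median over all features was −0.11 in Δhrp1 and −0.02 in wildtype. Of the 601 features, 150 had a mean below −3 in a strain, a level treated as near background, where sizes are not exact.

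The calls depend on having both wildtype samples. Without wildtype replicate 1 or 2 almost none of them was left. The median absolute difference of the called features was then 2.82 and 2.73, against 2.77 with both. Features picked for large differences in these same samples could hardly change sign or size here, so this is no support for the calls. A fit of the Δhrp1 and wildtype samples alone left 1 call, with 1318 features at an unadjusted p under 0.05. Quantile normalisation, which moved the median difference of all features to 0.02 against −0.14, called 505 lower and 455 higher. Of the called features, 52.6% were lower under quantile normalisation and 69.6% under centring on the median. With all arrays scaled to the same spread, the 601 called features had a median absolute difference of 2.40, against 2.77 without scaling.

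**Figure D1:**
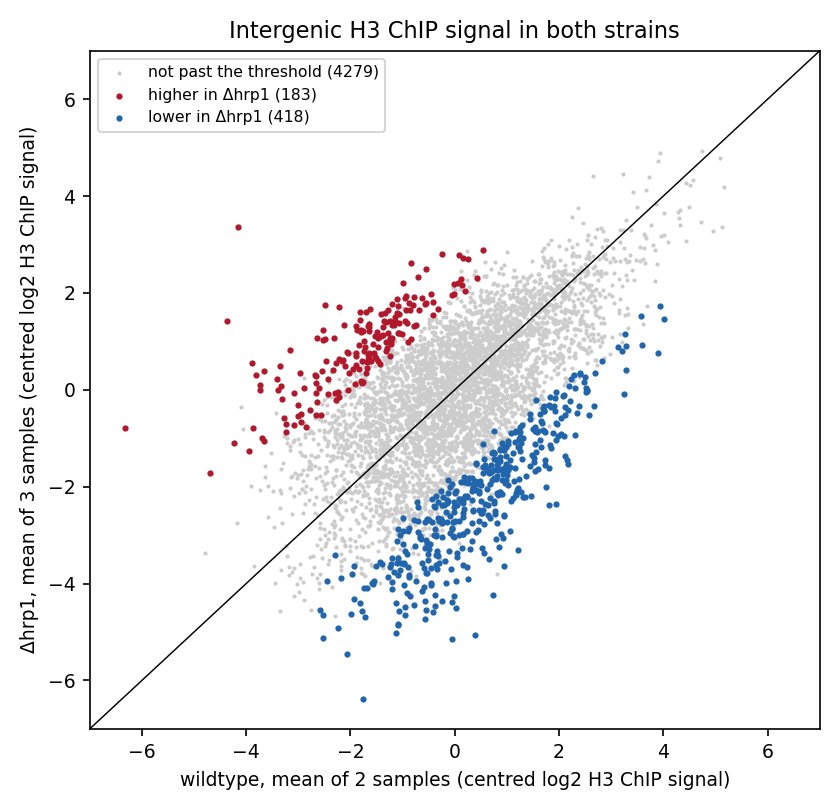
Mean centred log2 H3 ChIP signal of each intergenic feature in Δhrp1 (vertical axis, 3 samples) and wildtype (horizontal axis, 2 samples). Each point is a feature, with the 183 higher and 418 lower features coloured; the diagonal marks equal signal.

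The input DNA of the Δhrp1 arrays moved with the result. Input of wildtype was not used here, so the mean input signal of Δhrp1 was set against that of the Δmed15 arrays. Among the 418 features that were lower, 354 had lower input on the Δhrp1 arrays than on the Δmed15 arrays, with a median gap of −0.95 log2 units. Among the 183 that were higher, 125 had higher input there, with a median gap of 0.35. Over all tested features the input was lower on the Δhrp1 arrays at 2619 of 4880, with a median gap of −0.09. In the 976 features with the lowest relative input, 22.7% were called lower and 1.33% higher. In the 976 with the highest, 2.87% were lower and 4.92% higher. At the 1962 features whose input differed by less than 0.5 log2 units, a limit chosen after the data were seen, 92 (4.69%) were lower and 85 (4.33%) higher. Across features the difference had a Spearman correlation of 0.44, 0.31 and 0.29 with the input of Δhrp1 replicates 1, 2 and 3 (4880 features; ChIP and input share spots, so this is a description). The local background of the input channel was 5778 scanner units in Δhrp1 replicate 1 under a median signal of 10609.5, and 2120 under 7079.25 in replicate 2. The part of input in the H3 differences was not tested.

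**Figure D2:**
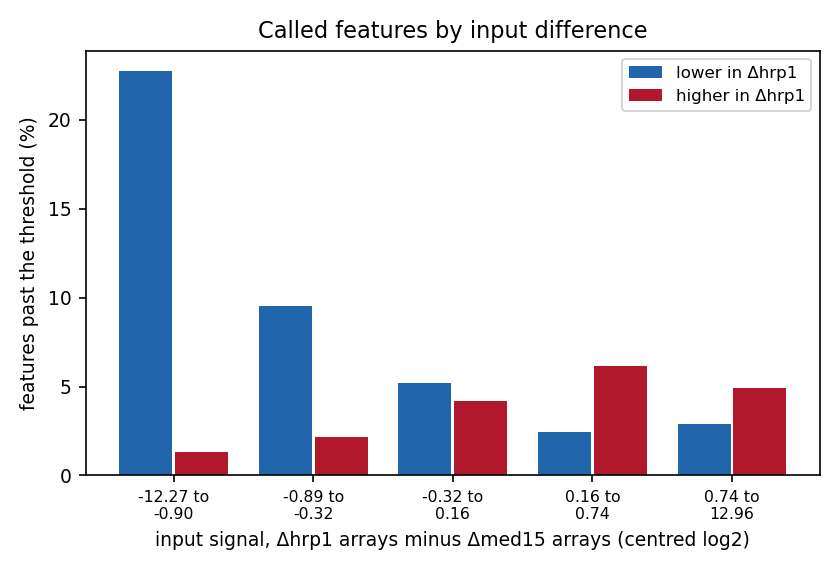
Share of features past the threshold, lower or higher in Δhrp1, in 5 equal bins of the input signal on Δhrp1 arrays minus that on Δmed15 arrays (centred log2; 976 features each). The share of lower features is 22.7% in the lowest bin and 2.87% in the highest.

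Among the 437 called features that were measured in all samples, did not overlap between the strains and were not near background, the largest fall was at mug116, a gene known from a screen of meiotically induced transcripts. Its signal was −2.52, −4.12 and −0.45 in Δhrp1, against 1.74 and 2.15 in wildtype (−4.82 ± 0.81, adjusted p = 0.0177). Its neighbour mug86 had −1.38, −3.25 and 0.04 in Δhrp1, against 2.18 and 2.15 in wildtype (−4.14 ± 0.76). The wildtype pair was tight at these features, while the Δhrp1 samples spread over more than 3 log2 units. The F-box protein gene pof1, whose product is a substrate receptor of a ubiquitin ligase, had −4.86, −2.06 and −0.18 in Δhrp1, against 1.64 and 1.97 in wildtype (−4.73 ± 1.01). SPBC1861.05 had −2.88, −4.71 and −1.34 in Δhrp1, against 0.93 and 0.86 in wildtype. SPACUNK4.15 had −4.03, −3.28 and −0.51 in Δhrp1, against 1.14 and 0.75 in wildtype. In each of these the groups were separate, and Δhrp1 replicate 3 lay nearest to wildtype. The other members of the set of 10 were fba1, rcf2, mfs3, pyk1 and a long tile at rps1701. Rcf2 is a factor of respiratory chain supercomplexes, and its feature had −3.42, −0.82 and −0.10 in Δhrp1, against 2.06 and 2.23 in wildtype. The transporter gene mfs3 had −3.58, −2.26 and −0.76 in Δhrp1, against 1.22 and 1.40 in wildtype (−3.95 ± 0.67, adjusted p = 0.0177).

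The largest rise that met the same limits was a long tile at SPBC24C6.09c, with 3.34, 1.53 and 0.39 in Δhrp1, against −0.99 and −4.00 in wildtype (4.59 ± 0.99, adjusted p = 0.0239). The feature of thc1 had 2.72, 1.38 and 1.06 in Δhrp1, against −2.12 and −2.33 in wildtype (4.02 ± 0.66, adjusted p = 0.0164). These features were dim in wildtype and bright in Δhrp1, the reverse of the falls. The feature of mtr10, a nuclear import receptor gene, had 1.68, 1.03 and 0.52 in Δhrp1, against −2.33 and −2.97 in wildtype (3.78 ± 0.61). That of pma2, a plasma membrane proton pump gene, had 3.75, 2.06 and 2.07 in Δhrp1, against −0.57 and −1.11 in wildtype (3.53 ± 0.69). The feature of pdp2 had 2.12, 1.61 and 1.07 in Δhrp1, against −1.99 and −1.66 in wildtype (3.53 ± 0.56). Each of the 3 Δhrp1 samples lay above the array median at these genes. SPAC869.04, atp16 (a subunit of the mitochondrial ATP synthase), chr4, sfc9 (a subunit of the RNA polymerase III factor TFIIIC) and med6 completed the 10. At SPBPB2B2.19c, the largest difference of all, signal was 3.40, 3.87 and 2.82 in Δhrp1, against −3.13 and −5.17 in wildtype (7.74 ± 0.69, adjusted p = 0.00271), where wildtype was near background.

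**Figure D3:**
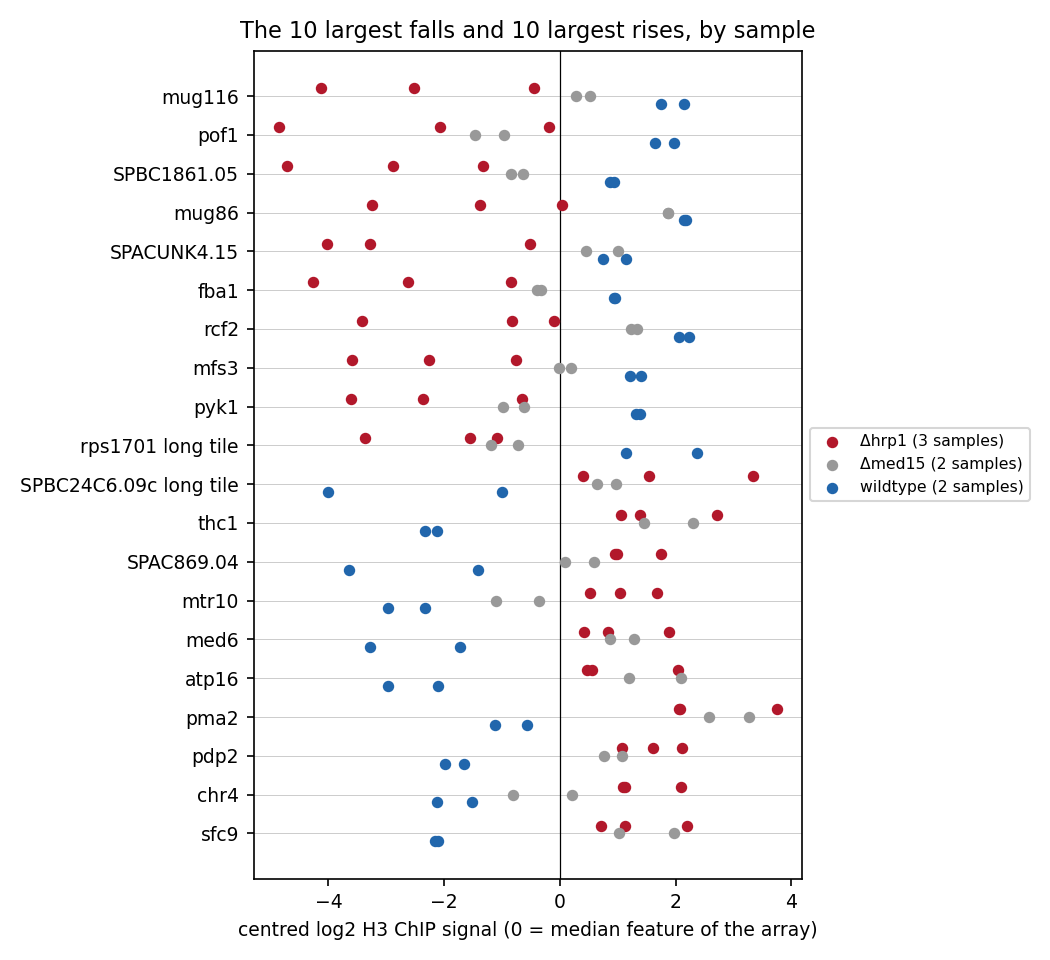
Centred log2 H3 ChIP signal of each sample at the 10 features with the largest falls (upper rows) and the 10 with the largest rises (lower rows); Δhrp1, Δmed15 and wildtype samples are points of different colour. The strains Δhrp1 and wildtype do not overlap at any of them, as the naming rule required. Among the rises, the Δmed15 samples lie with Δhrp1 at thc1 (2.30 and 1.46), pma2 (3.26 and 2.58), atp16, sfc9, med6 and the SPBC24C6.09c tile. At pdp2 (1.08 and 0.77) they lie at or just below Δhrp1. They lie between the strains at mtr10 (−0.36 and −1.10), chr4 (−0.81 and 0.21) and SPAC869.04 (0.08 and 0.59). Among the falls, they lie at or near wildtype at mug86 (1.88 and 1.87) and SPACUNK4.15 (0.45 and 1.00). At pof1 (−1.46 and −0.97) they lie with Δhrp1, and at pyk1 and the rps1701 tile at or just above it. At mug116, SPBC1861.05, fba1, rcf2 and mfs3 they lie between the strains.

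Glycolysis and fermentation form the pathway that breaks glucose down to ethanol. Of 15 features named after its genes 5 were called lower in Δhrp1, none was called higher and 10 did not pass, against backgrounds of 8.57% and 3.75%, and the list's median difference was −2.30 against −0.14 over all features. All 15 fitted differences were below 0. The aldolase gene fba1 had −4.27, −2.62 and −0.85 in Δhrp1, against 0.96 and 0.94 in wildtype (−4.03 ± 0.75, adjusted p = 0.0188). The pyruvate kinase gene pyk1 had −3.60, −2.36 and −0.66 in Δhrp1, against 1.32 and 1.38 in wildtype (−3.95 ± 0.73). The phosphoglycerate mutase gene gpm1 had −4.86, −1.43 and −1.83 in Δhrp1, against 0.30 and 0.64 in wildtype (−3.56 ± 0.91). The strains were separate at all 3, with Δhrp1 replicate 1, the array of widest spread, lowest. The gpm1 difference was −2.23 without that sample, and its call was lost without Δhrp1 replicate 3 (−3.61, adjusted p = 0.0814). Leaving out either Δmed15 sample gave the same difference and also lost the call, since the dye term then takes up Δhrp1 replicate 3. Such fits are 1 comparison, here and for the features below. The hexokinase gene hxk2 had −2.78, −3.18 and −1.95 in Δhrp1, against 0.30 and 0.01 in wildtype (−2.90 ± 0.59), and a long tile at pgk1 had −5.68, −4.64 and −1.51 in Δhrp1, against −0.07 and 0.12 in wildtype, near background in Δhrp1. Members that did not pass spread widely: tpi1 differed by −2.50, pdc101 by −2.37 and adh4 by −0.09. The input medians of the list were 0.81 in Δhrp1 and 1.82 in Δmed15. The 250-base windows of 13 members had a median GC content of 41.6%, the highest being 50.0%. On the coding arrays fba1 and pyk1 differed by 0.17 and −0.66, neither past the threshold, and gpm1 fell by 3.33.

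Features of cytosolic ribosomal protein genes were called lower at 20 of 115 (17.4%, against 8.57% of all features) and higher at 2 (against 3.75%), with a median difference of −0.41. Most of these genes exist as near-identical copies whose probes may cross-hybridise, so single members are uncertain. The feature of rps1602 had −2.55, −2.54 and −1.51 in Δhrp1, against 1.31 and 1.62 in wildtype (−3.78 ± 0.58, adjusted p = 0.0164), and the strains were far apart. Its copy rps1601 had −3.38, −2.15 and −1.60 in Δhrp1, against 0.58 and 0.68 in wildtype (−3.12 ± 0.65). A long tile at rps1701 had −1.08, −3.37 and −1.56 in Δhrp1, against 1.14 and 2.37 in wildtype. The HomolD box CAGTCACA, an element of ribosomal protein promoters, lay in 11 of the 19 windows of genes called lower and in 54 of 88 not called, against 2.62% of all windows. With samples labelled in Cy3 alone, 14 ribosomal protein features were called lower. The median input of the list was 0.39 in Δhrp1 and 0.42 in Δmed15. Of 45 mitochondrial ribosomal protein features, 4 were lower and none higher (against the same shares), among them mrpl31 (−1.44, −0.79 and −0.38 in Δhrp1, against 1.62 and 1.86 in wildtype).

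Genes of the Sty1 stress pathway, a MAP kinase cascade that answers osmotic and oxidative stress, were called lower at 5 of 24 features and higher at none, against 8.57% and 3.75% of all features (median difference −0.74). The transcription factor gene pap1 had 0.34, 0.28 and 2.06 in Δhrp1, against 3.13 and 3.13 in wildtype (−2.52 ± 0.62). The MAP kinase kinase gene wis1 had 0.19, −0.29 and 1.16 in Δhrp1, against 2.58 and 2.79 in wildtype (−2.50 ± 0.59). The response regulator gene prr1 had −1.42, −2.74 and −1.46 in Δhrp1, against 0.55 and 1.27 in wildtype (−2.83 ± 0.63). At pap1 and wis1 signal stayed at or above the array median in most Δhrp1 samples, and both features were bright in wildtype. The other called members were gpd1 and mcs4. Without Δhrp1 replicate 2 the calls of pap1, wis1, prr1 and gpd1 were lost, with adjusted p = 0.0672, 0.0616, 0.0554 and 0.448, and the gpd1 difference was −1.26, against −4.63 with that sample. The median input of the list was 0.76 in Δhrp1 and 1.01 in Δmed15.

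Of the 18 tRNA features, 4 were called lower and none higher (22.2% against 8.57%), with a median difference of −1.55. The asparagine feature had −1.04, −3.13 and −0.59 in Δhrp1, against 1.06 and 1.05 in wildtype (−2.93 ± 0.73, adjusted p = 0.0328). The glutamate feature had −3.15, −2.74 and −1.26 in Δhrp1, against −0.63 and 0.12 in wildtype (−2.56 ± 0.56). The arginine feature had −3.35 and −3.17 in the 2 Δhrp1 samples that were measured, against −1.20 and 0.06 in wildtype; replicate 2 was at the floor and was dropped, and the Δhrp1 mean is near background. The isoleucine feature had −0.51, −0.46 and −0.57 in Δhrp1, against −0.38 and −1.40 in wildtype, and the phenylalanine feature had 1.17, 0.92 and 0.97 in Δhrp1, against 0.67 and 0.65 in wildtype, with neither past the threshold. They are among the 4 tRNA features with a fitted difference above 0, while 14 were below 0. The aspartate feature did not pass but fell as far as some called features (−2.75 ± 1.05, adjusted p = 0.1065). Proline (−2.42 ± 0.71, adjusted p = 0.0525) and glycine (−2.32 ± 0.73, adjusted p = 0.0629) did not pass and fell slightly less than any called feature. The asparagine call was lost without Δhrp1 replicate 2 or 3 (adjusted p = 0.0620 and 0.0527) or either Δmed15 sample (0.0525), and the arginine call without Δhrp1 replicate 1 or 3 (0.0520 and 0.0870) or either Δmed15 sample (0.0869). The cysteine call (−2.45 ± 0.70, adjusted p = 0.0485) was lost without Δhrp1 replicate 3 (−2.68, adjusted p = 0.0612). Its difference was −1.59 without Δhrp1 replicate 1. With samples labelled in Cy3 alone, 1 tRNA feature was called lower. Their median input was −0.64 in Δhrp1 and −0.28 in Δmed15. Beside the tRNA genes, 20 features of RNA polymerase III machinery gave 3 higher (rpc1, rpc19, sfc9) and 1 lower (brf1), with rpc1 and brf1 near background. The brf1 call was lost without Δhrp1 replicate 1 or 2 (adjusted p = 0.0550 and 0.102), and the rpc19 call without replicate 2 (0.0554). Of 122 features whose upstream gap in RefSeq holds a tRNA gene, a set chosen after values were seen, 9.84% were called lower and 1.64% higher.

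Lists of chromatin genes are set against the shares of all features, 8.57% lower and 3.75% higher. None of 10 histone gene features passed; the widest fitted difference was at the H4 gene hhf1 (−2.98 ± 1.04, adjusted p = 0.0852), with −4.39, −0.95 and −0.23 in Δhrp1, against 0.49 and 1.02 in wildtype. Of 18 histone chaperone features, 2 were lower: spt6, a chaperone of elongating polymerase, with −3.76, −1.28 and −0.71 in Δhrp1, against 0.76 and 1.17 in wildtype, and spt16, a subunit of FACT, with −3.68, −2.00 and −0.98 in Δhrp1, against 0.42 and 0.07 in wildtype. The list's median was 0.41. The spt6 difference was −2.15 without Δhrp1 replicate 1, against −3.25 with it, and its call was lost without Δhrp1 replicate 3 or either Δmed15 sample (adjusted p = 0.0535 and 0.0533). Of 14 features of Snf2-family remodellers, rrp1 and fft1 were lower and none was higher (median −1.15). Fft1 had −1.73, −1.45 and −1.10 in Δhrp1, against 0.43 and 0.70 in wildtype (−2.09 ± 0.52, adjusted p = 0.0338), a call lost without Δhrp1 replicate 2 (0.0554). The feature of hrp3, the paralogue of hrp1, had −2.08, −0.21 and −0.85 in Δhrp1, against 0.86 and 0.86 in wildtype (−1.97 ± 0.65, adjusted p = 0.0741), separate but not past the threshold. Among 25 features of heterochromatin factors, raf2 and clr4 were lower and clr6 was higher. Clr4 is the H3 lysine-9 methyltransferase, and its feature had −2.92, −2.93 and −0.80 in Δhrp1, against −0.18 and −0.26 in wildtype. The clr4 call was lost without Δhrp1 replicate 2 (adjusted p = 0.104), and the clr6 call without Δhrp1 replicate 1 or 3 or either Δmed15 sample (0.0507, 0.0804 and 0.0803). Raf2, a subunit of the Clr4 complex, had −6.37, −6.11 and −2.73 in Δhrp1, against 0.11 and 0.68 in wildtype, near background in Δhrp1.

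Mediator subunit genes, of interest because Med15 is part of that complex, had 2 of 11 features higher and 1 lower, against 3.75% and 8.57% of all features. The feature of med6 had 1.88, 0.82 and 0.42 in Δhrp1, against −1.72 and −3.27 in wildtype (3.66 ± 0.69, adjusted p = 0.0188). That of srb11, the cyclin of the Mediator kinase module, had 1.21, 1.44 and 1.39 in Δhrp1, against −0.80 and −1.52 in wildtype (2.41 ± 0.55), a call lost without Δhrp1 replicate 2 (adjusted p = 0.0532). That of med7 fell to −5.91, −6.09 and −2.50 in Δhrp1, against −1.16 and −1.01 in wildtype, near background. Among 16 features of SAGA, a histone acetylating coactivator, spt20 and taf6 were higher (against 3.75% of all features) and ngg1 lower (against 8.57%). The feature of taf6 had 2.73, 1.59 and 2.29 in Δhrp1, against −0.97 and −1.03 in wildtype (3.08 ± 0.57). In Δmed15 the signal was 1.28 and 0.87 at med6, 1.69 and 1.07 at srb11, and 2.10 and 1.46 at taf6, each with Δhrp1. At spt20 it was −1.11 and −0.72, between the strains.

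The remaining lists gave up to 6 calls each, against 8.57% lower and 3.75% higher over all features, and are given as counts. Respiratory chain genes gave 3 higher and 3 lower of 33 (median 0.04), with qcr1, a subunit of the cytochrome bc1 complex, at −2.51, −3.14 and −3.13 in Δhrp1, against 0.96 and 1.16 in wildtype (−3.85 ± 0.53, adjusted p = 0.0164). At qcr1 the Δhrp1 samples were close together. Genes of the tricarboxylic acid cycle gave 2 and 2 of 22, with mdh1 (malate dehydrogenase) at 2.06, 0.82 and 0.46 in Δhrp1, against −1.13 and −1.92 in wildtype. Meiotic genes gave 2 and 2 of 25, proteasome genes 2 higher and 1 lower of 30, kinetochore and CENP-A loading genes 2 and 2 of 26, and cell wall genes 1 higher and 3 lower of 23. Mating genes gave 1 higher and 2 lower of 18, mitochondrial import genes 1 higher and 3 lower of 22, and 13 features listed for flocculins and their regulators gave pfl5 higher and sre1, a sterol-response factor gene, lower. Of 18 iron genes 1 was higher, and of 18 features listed for ammonium and amino acid uptake 2 were lower, the permease gene isp5 and a long tile at gap1, which in fission yeast encodes a Ras GTPase-activating protein. The calls of isp5, sre1 and the gap1 tile were lost without Δhrp1 replicate 2 (adjusted p = 0.0550, 0.0946 and 0.101), and that of the gap1 tile also without Δhrp1 replicate 3 or either Δmed15 sample (0.0684 and 0.0683). None of 12 phosphate-regulated or 8 arginine genes passed, and thiamine and hexose genes gave 1 lower each, of 6 and 12. Among 9 auxotrophic marker genes, his7 was higher (2.33, 1.66 and 1.30 in Δhrp1, against −1.55 and −0.85 in wildtype) and leu1 lower (−3.17, −2.96 and −0.60 in Δhrp1, against 0.69 and 0.66 in wildtype), the leu1 call being lost without Δhrp1 replicate 2 (adjusted p = 0.0571).

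**Figure D4:**
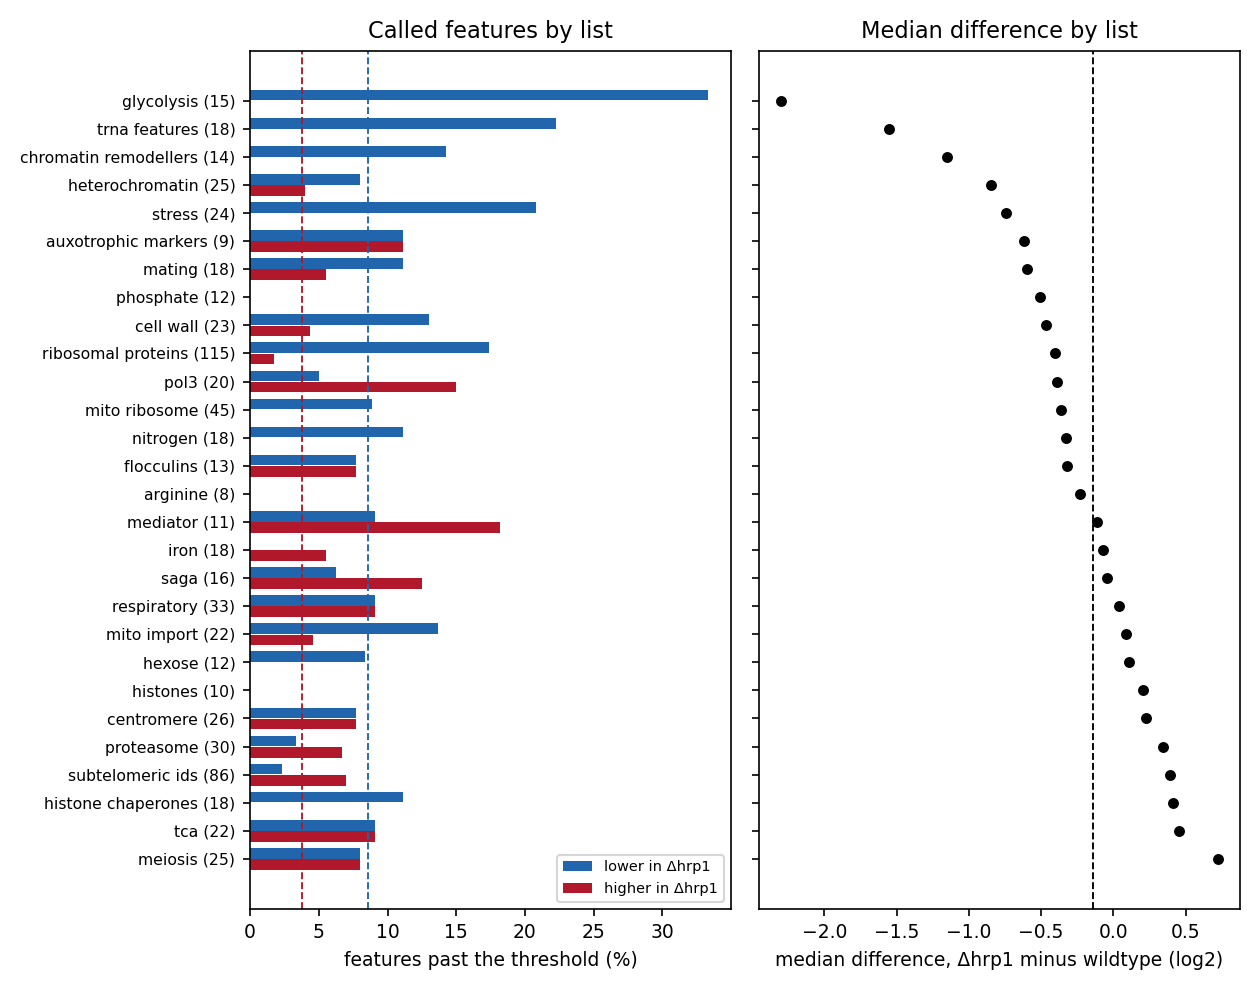
Left, share of each list's tested features (number in brackets) that were lower or higher in Δhrp1, with dashed lines at the shares of all features, 8.57% and 3.75%. Right, median fitted difference of each list in log2 units, with the median of all features, −0.14, dashed; glycolysis is lowest at −2.30.

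Features next to the telomeres of chromosomes I and II, regions packaged in heterochromatin, were called higher at 6 of 86 and lower at 2 (against 3.75% and 8.57% of all features), with a median difference of 0.39. Their median signal was 1.56 in Δhrp1 and 0.80 in wildtype, above the median feature in each strain. The feature of SPBPB2B2.07c had 1.33, −0.33 and 0.07 in Δhrp1, against −2.93 and −3.01 in wildtype (3.40 ± 0.63). The galactokinase gene gal1 had −3.85, −4.53 and −2.97 in Δhrp1, against −0.93 and −0.18 in wildtype, near background. Many sequences near the telomeres are repeated, so the values are uncertain. The single Tf2 retrotransposon feature, Tf2-1, had 3.05, 1.40 and 0.22 in Δhrp1, against −1.64 and −1.20 in wildtype (3.29 ± 0.75, adjusted p = 0.0274). It too is a repeated sequence.

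Repeats and silenced regions were read after their values were seen and are given without a test. The dg and dh repeats flank the centromeres and carry heterochromatin. The feature labelled dg1repeat, bright in every sample, had 4.52, 4.32 and 3.82 in Δhrp1, against 4.33 and 4.70 in wildtype. The feature labelled dh1repeat had 1.84, 1.86 and 1.13 in Δhrp1, against 2.59 and 2.79 in wildtype. A feature labelled as the central region of cen3 had 2.24, 2.39 and 1.51 in Δhrp1, against 1.91 and 2.29 in wildtype. The strains overlap at dg1repeat and the central region and are separate at dh1repeat. They overlap at a partial dhII repeat, with 4.86, 2.72 and 2.61 in Δhrp1, against 4.28 and 4.35 in wildtype. A feature between dhIIa and dgIIa is separate in the other direction, with 5.54, 3.97 and 3.76 in Δhrp1, against 2.61 and 2.70 in wildtype. The mating-type feature matmc had 4.40, 1.98 and 1.37 in Δhrp1, against 1.01 and 0.89 in wildtype, and matmi had 2.73, 2.13 and 1.57 in Δhrp1, against 2.99 and 3.40 in wildtype. The features matmc-x2 and matmi-x2, labelled as their other copies, did not repeat these directions. The matmc-x2 feature had 3.85, 1.42 and 0.72 in Δhrp1, against 2.73 and 2.81 in wildtype. At matmi-x2 the signal was 4.22, 2.25 and 1.82 in Δhrp1, against 2.60 and 2.16 in wildtype. The strains overlap at both copies and at a long tile at matmc-x2, but not at a long tile at matmc. Both long tiles had fitted differences above 0, as matmc did (1.29 at matmc-x2 and 2.55 at matmc). The wtf genes, a family of meiotic drivers, had a median of 2.00 in Δhrp1 and 0.91 in wildtype over 21 features, which share sequence.

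**Figure D5:**
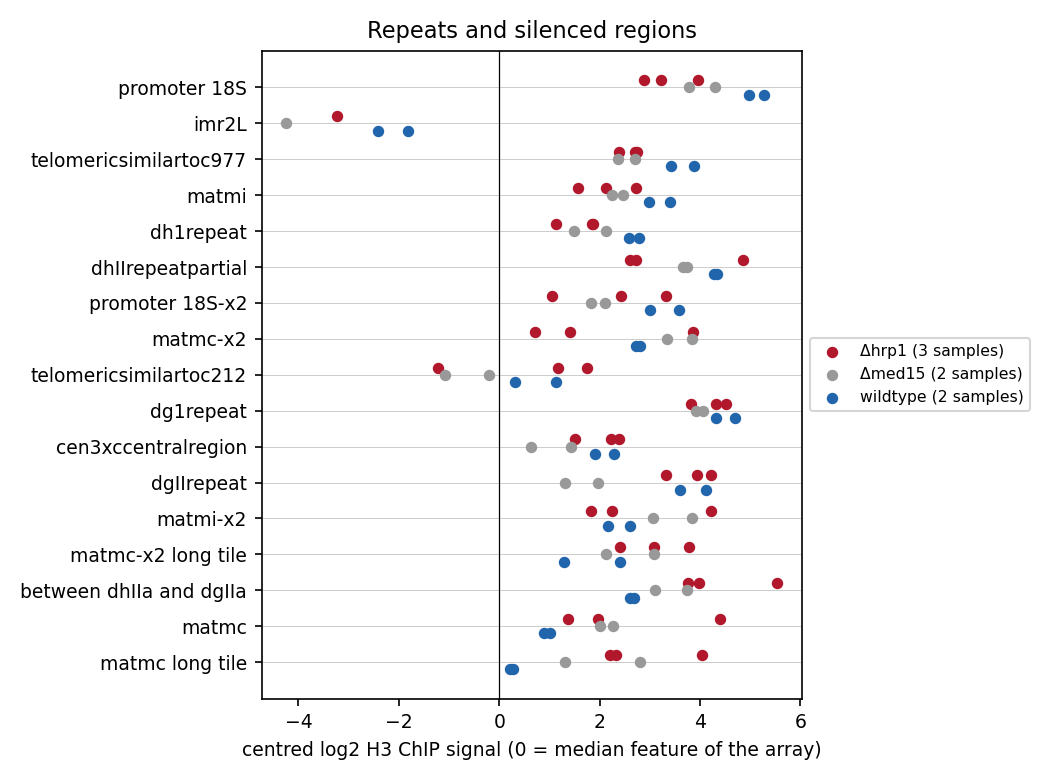
Centred log2 H3 ChIP signal of each sample at features of centromere repeats, mating-type cassettes, telomeric features and the 18S ribosomal DNA promoter, in Δhrp1, Δmed15 and wildtype. At the dg repeat the Δhrp1 samples (4.52, 4.32 and 3.82) overlap with wildtype (4.33 and 4.70).

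The intergenic and coding differences of the same gene were almost unrelated (Spearman 0.03 over 4458 genes, as a description). The coding arrays called 13.5% of features higher and 13.9% lower. Among genes whose intergenic feature was lower, 16.8% of 380 had a lower and 11.6% a higher coding feature. Among genes whose intergenic feature was higher, 16.7% of 162 had a lower and 17.9% a higher coding feature. At thc1 the intergenic feature rose while the coding feature fell by 2.84 (adjusted p = 0.0395), and at mug116 both fell.

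Intergenic spacing is given as a description, with no test. In RefSeq the gap upstream of the gene had a median of 621 bases at 382 features called lower, 319 at 158 called higher and 451 at all 4441. In the 888 features with the longest gaps 11.6% were lower and 2.25% higher, and in the 889 with the shortest 7.87% and 4.05%. Across features the Spearman correlation of the difference with gap length was −0.09 and with GC content −0.04. The median GC content of the 250-base window was 33.2% in features called lower and 32.0% in those called higher. The upstream neighbour was divergently transcribed for 59.7% of those lower, 51.9% of those higher and 54.4% of all. Where neighbouring genes both had a called feature, the direction was the same for 18 of 22 divergent, 35 of 47 tandem and 21 of 26 convergent pairs. With 418 of the 601 called features lower, most unlinked pairs would share a direction too, and their share was not computed. Neighbouring features also read each other's H3, as the fragments were long. By chromosome, 8.16% of features on chromosome I, 8.06% on II and 10.4% on III were lower, and 3.02%, 4.81% and 3.42% were higher. In the 976 features with the lowest signal in Δmed15, 15.9% were lower and 1.02% higher, and in the 976 with the highest 5.23% were lower and 5.33% higher.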

How the data were processed

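Histone H3 ChIP DNA was measured on 2-colour spotted arrays of intergenic regions in 3 Δhrp1, 2 Δmed15 and 2 wildtype samples, with open reading frame arrays beside them. In the deletion strains the deposited values are log2 of the background-subtracted ChIP signal over a constant near the array median, with a floor at a ratio of 0.01. A comparison with the authors' scanner files showed this. The wildtype arrays were not compared in this way, and the same scale was assumed for them. Deposited scanner intensity of the input channel was used for the deletion strains. No source used here names the array's genome build; feature names on chromosome III equal ASM294v3 coordinates for tRNA genes. Of 4883 features, 4670 matched 1 RefSeq gene, 16 several and 197 none. Each array was centred on its median, floor values were missing and spots of a feature averaged. Limma 3.58.1 in R 4.3.3 fitted strain and ChIP dye over the 7 samples, with Benjamini-Hochberg adjustment at 0.05 over all features. The script was tested on simulated data. Named features are hrp1, med15, the 10 largest rises and falls among called, non-overlapping features with means above −3, and up to 4 called members of each list. The members and lists were chosen with earlier results of these data known; rps1601, hhf1, hrp3, hxk2, mcs4, the tRNA and glycolysis features that did not pass and the features of repeats were named after their values were seen. RNA was not analysed here, since no table given names the probe sets' genes. The number of arrays limits the precision.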

Additional observations from a re-analysis of the deposited data

How the results depend on the processing

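The 601 calls became 641 with no dye covariate, 482 with samples in Cy3 only, 813 with the replicate block and 531 with dim features left out. They became 975 with arrays scaled to the same spread, 960 with quantile normalisation, 343 with floor values kept, and 1 with the Δhrp1 and wildtype samples only. Leaving out a replicate gave 1 to 899 calls, with 1 and 2 without wildtype replicate 1 and 2, 899, 480 and 482 without Δhrp1 replicates 1, 2 and 3, and 488 without either Δmed15 replicate. The cause was not tested; with 1 wildtype sample the lone sample is assumed to vary like the other groups. On the coding arrays the 1309 calls became 1582, 1386 and 1632 with no dye covariate, Cy3 only and the replicate block, and 3 to 1409 without a replicate (45 and 3 without wildtype replicate 1 and 2). No feature chosen by the naming rule changed sign in any of these settings, which the choice by large differences in these samples made likely. Of these features, 93 lost their call without either wildtype replicate, 94 in the fit of the Δhrp1 and wildtype samples only, and 2 to 29 in each other setting. Deviations of same-numbered samples from the strain means correlated at 0.15 between Δhrp1 and wildtype, 0.20 between Δhrp1 and Δmed15 and 0.20 between Δmed15 and wildtype, over replicates 1 and 2. No label ties a number to a shared culture or day, and with 2 shared numbers the pairing cannot be told, so no block was used; the block kept 554 of the 601 calls, and under it the med15 feature passed (−3.09, adjusted p = 0.0304). The alternatives listed for RNA were not run.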
